A study of Rattus norvegicus with 25 samples.

Results

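The circadian clock genes described here are 8 gene IDs of the 32883 counted by the authors in rat small intestine: Arntl (ENSRNOG00000014448, also called Bmal1), Clock (ENSRNOG00000002175), Per1 (ENSRNOG00000007387), Per2 (ENSRNOG00000020254), Cry1 (ENSRNOG00000006622), Nr1d1 (ENSRNOG00000009329), Nr1d2 (ENSRNOG00000046912) and Dbp (ENSRNOG00000021027). They were chosen as named genes of the clock, with earlier results of these data known, and the symbols come from that choice, since the count table carries IDs alone. The rats had either sham surgery or a Roux-en-Y gastric bypass (RYGB), in which food passes from a small gastric pouch straight into a loop of jejunum. The first cohort comprised 4 groups of 3 total RNA libraries: after RYGB the alimentary limb (RYGB_AL), which receives the food, and the common limb (RYGB_CL), where food and digestive juices meet, and after sham surgery the jejunum (Sham_JEJU) and the ileum (Sham_IL). An OLE cohort, from Otsuka Long-Evans Tokushima Fatty (OLETF) rats, which become obese and diabetic, gave intestinal sections after RYGB that the submitters called glucotonic (Glucotonic_OLE, numbers 13, 16, 18 and 19) or non-glucotonic (Nonglucotonic_OLE, the same numbers), and distal intestine after sham surgery (Sham_OLE, numbers 4, 22 and 23). The labels give no strain for the first cohort, no age, no feeding state and no hour of collection for any sample. The limbs after RYGB carry the titles 1-1, 2-3 and 15-29, and both sham segments carry 8-15, 14-28 and 15-30.

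The clock runs in most cells as a loop of transcription that takes about a day. The proteins of Arntl and Clock bind together at E-boxes and switch on the Per and Cry genes, Nr1d1, Nr1d2 and Dbp. The PER and CRY proteins then hold back that pair, while NR1D1 and NR1D2 (REV-ERB alpha and beta) repress Arntl through sites called ROREs. DBP is an output factor that acts at D-boxes, among them one of Per2. Arntl RNA is therefore high at the hours when Per, Nr1d1 and Dbp RNA are low, and the reverse. In the gut the clock is known to follow meal times and to pace motility, nutrient transport and cell division.

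The promoters of 3 members are printed, as the 250 bases before a RefSeq transcript start (build GRCr8). They were picked because they hold strings that match the elements named above. Capitals mark a match, on either strand, to CACGTG (E-box), CACGTT (a variant E-box), TTATGNAA (D-box) or ANTAGGTCA (RORE), none of which overlapped another. Arntl lies at chr1:176766078-176766327 on the plus strand, and its capitals are a RORE that begins 18 bases before the start. Per2 lies at chr9:99496994-99497243 on the minus strand, with a D-box 192 bases and a variant E-box 62 bases before the start. Nr1d1 lies at chr10:84229455-84229704 on the minus strand, before the second of its 2 listed starts, with an E-box 191 bases before it.
Arntl: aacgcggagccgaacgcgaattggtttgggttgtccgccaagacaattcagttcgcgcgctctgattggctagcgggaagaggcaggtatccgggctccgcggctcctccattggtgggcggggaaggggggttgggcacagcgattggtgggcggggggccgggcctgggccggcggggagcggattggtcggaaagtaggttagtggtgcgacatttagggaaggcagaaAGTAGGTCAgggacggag
Per2: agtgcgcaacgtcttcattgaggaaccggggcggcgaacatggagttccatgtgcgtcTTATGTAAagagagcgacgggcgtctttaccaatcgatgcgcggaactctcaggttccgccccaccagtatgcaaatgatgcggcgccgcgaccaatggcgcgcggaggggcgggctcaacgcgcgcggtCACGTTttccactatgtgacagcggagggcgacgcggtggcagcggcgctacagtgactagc
Nr1d1: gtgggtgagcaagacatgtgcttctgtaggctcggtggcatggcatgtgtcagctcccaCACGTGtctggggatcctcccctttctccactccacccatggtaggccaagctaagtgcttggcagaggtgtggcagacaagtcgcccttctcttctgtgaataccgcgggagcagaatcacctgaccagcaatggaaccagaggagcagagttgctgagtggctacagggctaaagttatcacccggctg
These windows were found for 7 of the 8 members, by symbol. Among all 33469 such windows of the table, 5.59% held the E-box, 4.07% its variant, 3.28% the D-box and 0.568% the RORE. The window at the other start of Nr1d1 (chr10:84231813-84232062) held the variant E-box on the opposite strand, and the windows of Clock, Per1, Nr1d2 and Dbp held no match. The only Per1 window (chr10:54304126-54304375, plus strand) lies inside the gene, which begins at base 54299002. The bases before that beginning of Per1 were therefore not searched. A match is a string of letters and not a measured binding site.

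The first cohort had between 23.7 and 49.3 M counts per sample (M for mega), and the OLE cohort, with libraries of one number and group summed, had 18.8 to 46.6 M. In the OLE cohort 3 abundant IDs held 47.3% to 67.3% of a sample's counts, so fewer were left for the others. Each member had 469 to 7062 counts per sample in the first cohort and 139 to 3537 in the OLE cohort, and all 8 passed the filter on low counts in both. Levels are given as CPM, counts per 1 M counts, scaled within a cohort by the trimmed mean of M-values (TMM), and are not compared between cohorts or, since they are not corrected for length, between genes.

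In the alimentary limb, RNA of the activator Arntl was 2.26 times its level in sham jejunum, while RNA of the repressor Per2 and of the output factor Dbp was lower (log2 changes of -1.60 and -1.43). These were the 3 members called in this comparison (edgeR quasi-likelihood test over 16146 IDs, Benjamini-Hochberg adjusted p under 0.05). Of all IDs tested, 7.66% were called, 4.45% as higher and 3.21% as lower. The other 5 members had adjusted p of 0.0787 to 0.426 by edgeR. The median absolute log2 change was 1.1 over the 8 members and 0.332 over all IDs tested. In bulk tissue, fewer cells of a type and less RNA per cell cannot be told apart. Since hour of collection and feeding state are not given, their part in any difference between groups or numbers was not tested. Surgery cannot be told apart from them here.

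Among the activators, Arntl was at 42.8, 60.1 and 80.6 CPM in RYGB_AL numbers 1-1, 2-3 and 15-29, against 27.4, 24.0 and 29.7 CPM in Sham_JEJU numbers 8-15, 14-28 and 15-30. Every alimentary limb was above every sham jejunum, and the means were 61.1 ± 18.9 and 27.0 ± 2.89 CPM (SD, n = 3 each). The log2 change of Arntl was 1.18 (SE 0.26, adjusted p = 0.0199, edgeR). This call was lost without some single libraries: the adjusted p by edgeR was 0.0697 without RYGB_AL 2-3, 0.0893 without RYGB_AL 15-29, 0.0581 without Sham_JEJU 8-15 and 0.0822 without Sham_JEJU 14-28. The log2 change in these fits was 1.16, 0.93, 1.19 and 1.09. Over all IDs these fits called 503, 484, 792 and 557, against 1237 with all libraries. Over all 17 alternatives the log2 change of Arntl stayed between 0.93 and 1.38, with adjusted p of 0.000954 to 0.0893. Clock, whose protein partners that of Arntl, was at 153, 167 and 178 CPM against 127, 150 and 150 CPM. The Clock groups did not overlap, yet the gap was small: the log2 change was 0.23 (SE 0.15, adjusted p = 0.426, edgeR).

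Among the repressors, Per2 was at 80.8, 43.2 and 33.2 CPM in the alimentary limbs and at 177, 166 and 134 CPM in the sham jejuna. The highest alimentary limb, 1-1, was still well under the lowest sham jejunum. The log2 change of Per2 was -1.60 (SE 0.27, adjusted p = 0.00491, edgeR), and it was called under all 17 alternatives, with adjusted p of 2.51e-06 to 0.0266. Per1, a paralog of Per2 that glucocorticoids also induce, was at 32.3, 28.7 and 60.1 CPM against 83.6, 120 and 73.9 CPM. Its groups did not overlap either, with alimentary limb 15-29 nearest to the sham values. The log2 change of Per1 was -1.20 (SE 0.38) and missed the threshold (adjusted p = 0.0787, edgeR), but it passed without RYGB_CL 15-29, which enters the common estimate of the spread (adjusted p = 0.0222). Over its 17 alternatives the adjusted p of Per1 ran from 0.0171 to 0.239, by edgeR or DESeq2. Cry1, the partner of the PER proteins, was at 38.6, 41.5 and 29.4 CPM against 61.9, 38.4 and 40.3 CPM, and these groups overlapped (log2 change -0.36, SE 0.22, adjusted p = 0.379, edgeR).

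The nuclear receptor genes were less clear. Nr1d2 was at 126, 141 and 114 CPM in the alimentary limbs and at 152, 175 and 174 CPM in the sham jejuna. Every alimentary limb was lower, by a log2 change of -0.40 (SE 0.14, adjusted p = 0.118, edgeR). Nr1d1 was at 25.5, 11.4 and 17.6 CPM against 34.2, 60.8 and 15.6 CPM. Sham jejunum 15-30 was as low as the alimentary limbs, so the Nr1d1 groups overlapped (log2 change -1.02, SE 0.47, adjusted p = 0.232, edgeR). The log2 change of Nr1d1 was -0.46 without Sham_JEJU 14-28 and -1.40 without Sham_JEJU 15-30, and it was called in none of the fits that left out 1 library.

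Dbp was at 49.2, 31.1 and 20.3 CPM in the alimentary limbs and at 75.0, 117 and 79.7 CPM in the sham jejuna. The groups were separate, and the log2 change of Dbp was -1.43 (SE 0.34, adjusted p = 0.0273, edgeR). It lost the call without RYGB_AL 2-3 (adjusted p = 0.0999, edgeR), without RYGB_AL 15-29 (0.103) and without Sham_JEJU 14-28 (0.104). These fits also called fewer of all IDs, as given for Arntl. Over all 17 alternatives the log2 change of Dbp ran from -1.81 to -1.17 and the adjusted p from 0.00129 to 0.104.

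Counted together, 6 of the 8 members had groups that did not overlap between alimentary limb and sham jejunum: Arntl and Clock higher, Per1, Per2, Nr1d2 and Dbp lower. Over all IDs tested that share was 26.6%. At an unadjusted p under 0.05 by edgeR stood 5 members and 22.2% of all IDs. The DESeq2 Wald test called 5 members (Arntl, Per1, Per2, Nr1d2 and Dbp), and 12.6% of all IDs.

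**Figure D1:**
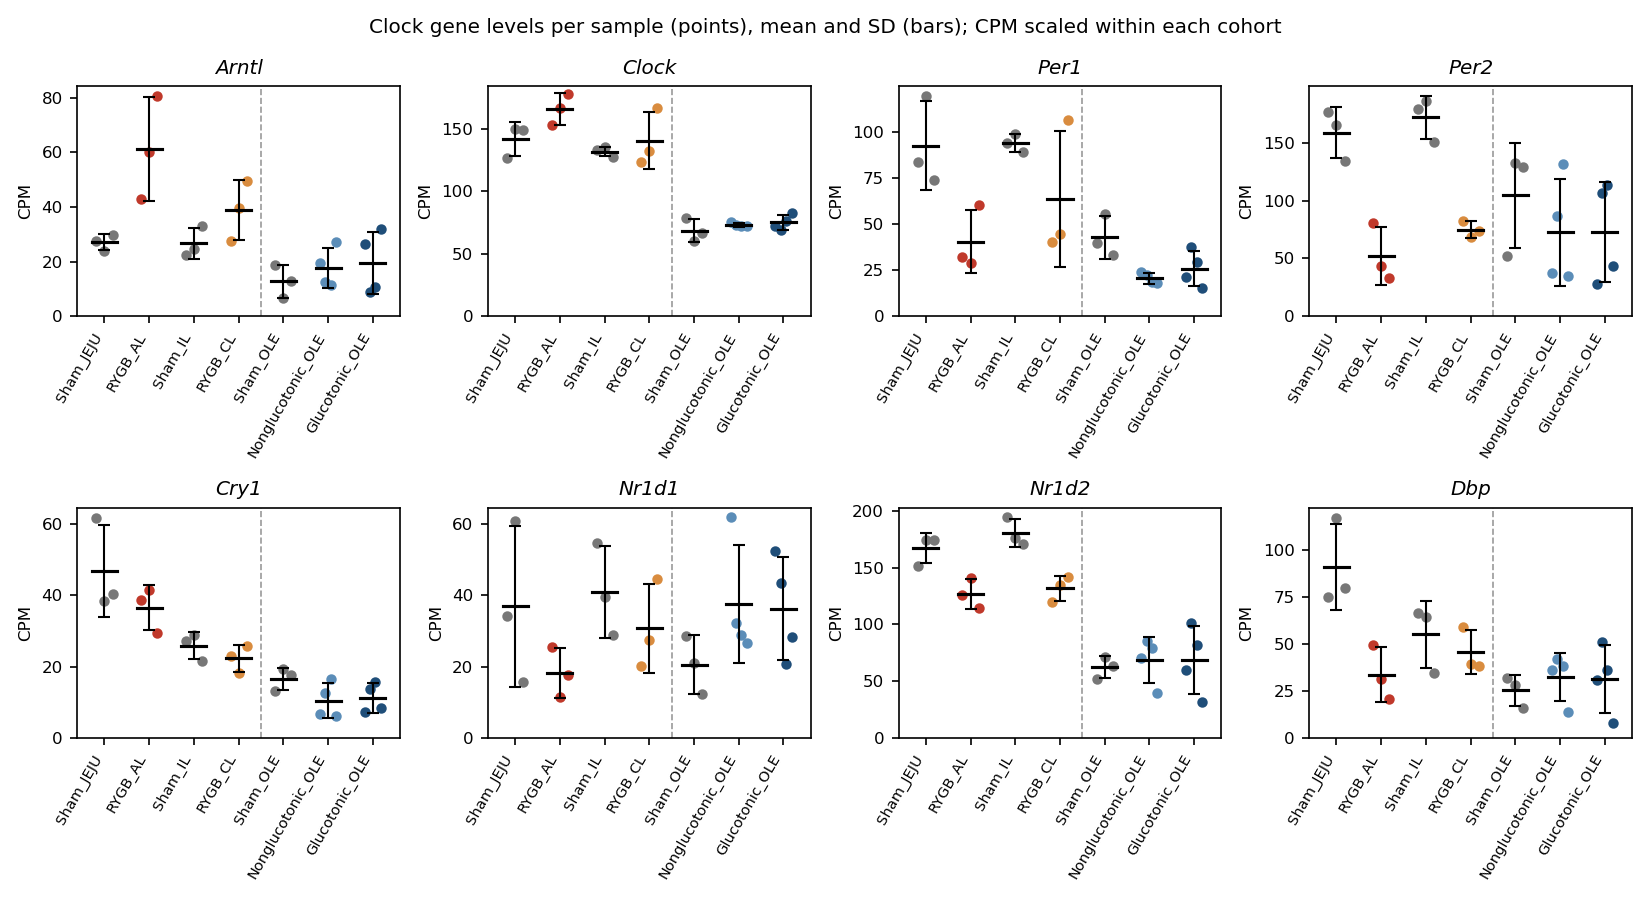
CPM of each of the 8 clock genes (vertical axes, starting at 0) in each sample (points) of the 7 groups, with the group mean and SD as black bars; the dashed line parts the first cohort from the OLE cohort, whose CPM were scaled separately. Arntl lay above every Sham_JEJU sample in all 3 RYGB_AL samples, and Per2 lay below its sham group in all 3 RYGB_AL and all 3 RYGB_CL samples.

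In the common limb, set against sham ileum, Per2 again lay well below its control, but no member was called by the main test. Per2 was at 82.6, 68.1 and 73.8 CPM in RYGB_CL numbers 1-1, 2-3 and 15-29, and at 180, 186 and 151 CPM in Sham_IL numbers 8-15, 14-28 and 15-30. The means were 74.9 ± 7.28 and 172 ± 18.9 CPM (SD, n = 3 each), and no common limb came near a sham ileum. The log2 change of Per2 was -1.20 (SE 0.27, adjusted p = 0.458, edgeR). Of all 16146 IDs tested, 0 were called here by edgeR (0.00%, lowest adjusted p 0.0778), and none of the 8 members. At an unadjusted p under 0.05 stood 2 members, Per2 and Nr1d2, and 7.85% of all IDs. DESeq2 called 1 member, Per2 (adjusted p = 0.0161), and 0.576% of all IDs, while over its 17 alternatives the adjusted p of Per2 ran from 0.0161 to 0.993.

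Nr1d2 was the other member whose groups did not overlap: 119, 134 and 141 CPM in the common limbs against 195, 176 and 171 CPM in the sham ilea (log2 change -0.46, SE 0.14, adjusted p = 0.493, edgeR). The share of IDs without overlap was 16.1%. Arntl was at 27.5, 39.5 and 49.4 CPM against 22.2, 24.7 and 33.1 CPM. Common limb 1-1 lay among the sham ilea, and the log2 change of Arntl was 0.54 (adjusted p = 0.646, edgeR). Dbp was at 58.8, 39.2 and 38.2 CPM against 66.4, 64.1 and 34.1 CPM. Sham ileum 15-30 had the lowest Dbp of these 6 samples, and the log2 change was -0.27 (adjusted p = 0.834, edgeR). Per1 was at 40.0, 44.5 and 106 CPM against 94.1, 98.6 and 89.2 CPM, with common limb 15-29 above every sham ileum and the other common limbs far below. The log2 changes of Clock, Cry1 and Nr1d1 were 0.09, -0.21 and -0.42.

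Whether the members differed from sham unequally at the 2 sites was tested as the RYGB_AL change minus the RYGB_CL change. None of the 8 members was called by edgeR, against 0.607% of all IDs, and none by DESeq2. Dbp was the 1 member with an unadjusted p under 0.05 by edgeR (12.5% of all IDs had one), its change being lower by 1.16 on the log2 scale in the alimentary limb (SE 0.48, adjusted p = 0.335). For Arntl the difference was 0.64 (SE 0.37, adjusted p = 0.522, edgeR) and for Per2 it was -0.40 (adjusted p = 0.725, edgeR). So a call in the alimentary limb without one in the common limb does not show that the limbs differed.

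**Figure D2:**
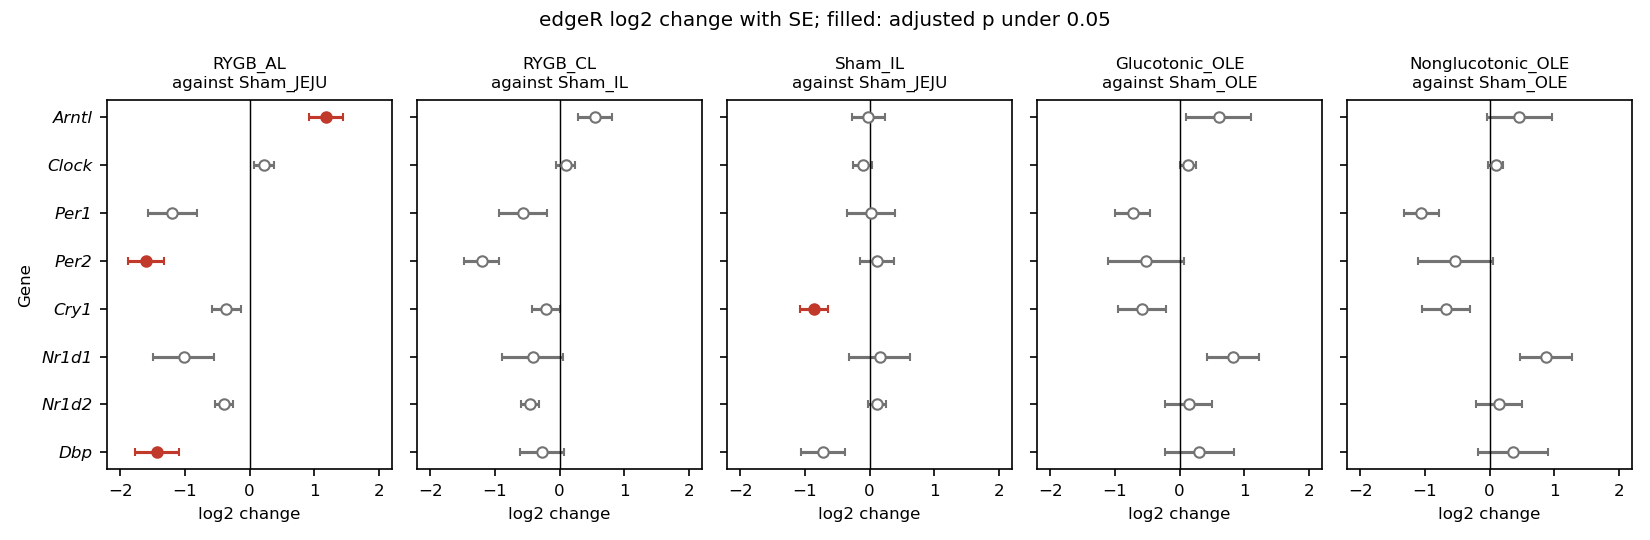
Log2 change (horizontal axis) of each clock gene in 5 comparisons, with its SE as a bar; filled red points had an edgeR adjusted p under 0.05. The called members were Arntl, Per2 and Dbp in RYGB_AL against Sham_JEJU, and Cry1 in Sham_IL against Sham_JEJU.

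Between the 2 sham segments Cry1 was the 1 member called. It was at 27.2, 28.8 and 21.5 CPM in ileum and at 61.9, 38.4 and 40.3 CPM in jejunum of the same numbers (8-15, 14-28 and 15-30), so that every ileum was below every jejunum. The log2 change of Cry1 in ileum was -0.86 (SE 0.22, adjusted p = 0.0355, edgeR). Of all IDs, 9.22% were called between these segments, 6.47% as lower in ileum, and 1 of 8 members is near that share. The call was lost in 4 of the fits that left out 1 library, with adjusted p by edgeR of 0.127 without Sham_JEJU 8-15, 0.109 without Sham_IL 8-15, 0.0576 without Sham_IL 14-28 and 0.143 without Sham_IL 15-30. Over all IDs these 4 fits called 546, 275, 882 and 235, against 1489 with all libraries. The Cry1 call was also lost when only the sham groups were fitted (adjusted p = 0.0569, edgeR). Over 18 alternatives the adjusted p ran from 0.00677 to 0.143. Dbp, the other member without overlap (a share of 35.2% over all IDs), had a log2 change of -0.72 (SE 0.34, adjusted p = 0.186, edgeR). Arntl, Clock, Per1, Per2, Nr1d1 and Nr1d2 had log2 changes of at most 0.16 in size with all libraries. That of Nr1d1 rested on single libraries, being 0.74 without Sham_JEJU 14-28 and -0.22 without Sham_JEJU 15-30, and that of Per1 was 0.27 without Sham_JEJU 14-28. With all libraries, the median absolute change was 0.115 over the members and 0.412 over all IDs. The Per2 levels of the 2 sham segments therefore lay side by side, at 172 ± 18.9 CPM in ileum and 159 ± 22 CPM in jejunum. Every sham segment was above every limb after RYGB, where Per2 was at 52.4 ± 25.1 CPM in the alimentary and 74.9 ± 7.28 CPM in the common limb.

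Between the limbs after RYGB no member was called by edgeR, against 9.32% of all IDs. Cry1 again lay lower at the distal site, with 22.9, 18.3 and 25.8 CPM in the common limbs and 38.6, 41.5 and 29.4 CPM in the alimentary limbs. It was the 1 member whose groups did not overlap here, where 32.0% of all IDs had none. Its log2 change was -0.71 (SE 0.22, adjusted p = 0.0643, edgeR). DESeq2 called it (adjusted p = 0.0313, 1 of 8 members, against 17.2% of all IDs), and edgeR called it without Sham_JEJU 8-15 (0.0454). Arntl was lower in the common limb of each number, by 0.63, 0.60 and 0.71 on the log2 scale in 1-1, 2-3 and 15-29, and stood in the same order over these numbers in both limbs. At an unadjusted p under 0.05, by edgeR, were 2 members, Arntl and Cry1, and 29.2% of all IDs. Per2 was higher in the common limb by 0.52 (adjusted p = 0.221, edgeR), and by 0.97 without RYGB_AL 1-1, where edgeR called it (adjusted p = 0.0204), with a range of 0.0204 to 0.54 over 18 alternatives.

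Arntl and Per2 are products of opposite arms of the loop, and their difference within a library depends little on how that library was scaled. Per2 minus Arntl on the log2 CPM scale was 0.92, -0.48 and -1.28 in the alimentary limbs and 1.58, 0.78 and 0.58 in the common limbs. It was 2.69, 2.79 and 2.17 in the sham jejuna and 3.01, 2.91 and 2.18 in the sham ilea. All 6 samples after RYGB were below all 6 sham samples. Dbp minus Arntl was 0.20, -0.95 and -1.99 in the alimentary limbs against 1.45, 2.28 and 1.42 in the sham jejuna, again without overlap. In the common limbs it was 1.09, -0.01 and -0.37 against 1.58, 1.37 and 0.04 in the sham ilea, where sham ileum 15-30 fell among the limbs. Nr1d1 minus Arntl overlapped at both sites. It was -0.745, -2.39 and -2.19 in the alimentary limbs against 0.322, 1.34 and -0.927 in the sham jejuna. In the common limbs it was -0.445, -0.532 and -0.144 against 1.3, 0.674 and -0.194 in the sham ilea. Per2 minus Per1 also overlapped at both sites. These differences use the same values as the comparisons above, so no test was made of them.

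**Figure D3:**
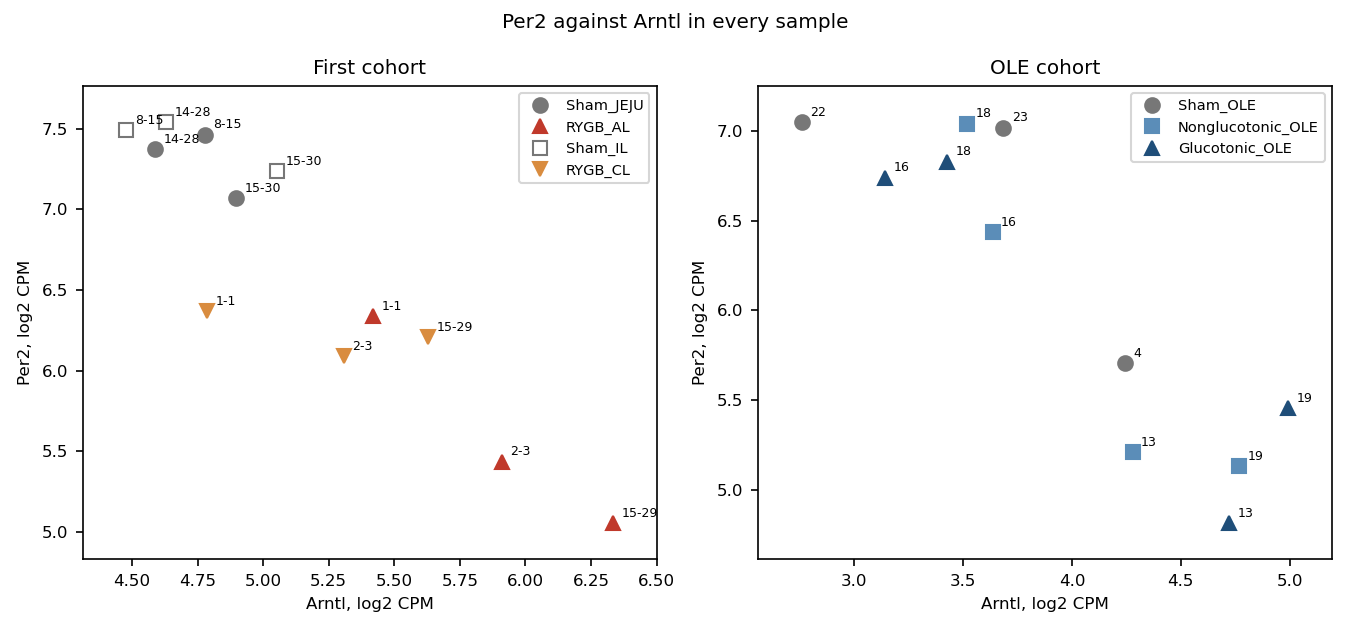
Per2 against Arntl, both in log2 CPM, in every sample of the first cohort (left) and the OLE cohort (right), labelled by number. In the first cohort the sham samples lay at high Per2 and low Arntl and the alimentary limbs at the other end; in the OLE cohort numbers 13 and 19 after RYGB and Sham_OLE 4 lay apart from numbers 16 and 18 and the other Sham_OLE samples.

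Glucotonic sections of the OLE cohort were set against the distal intestine of sham OLETF rats. Whether either kind of section after RYGB came from the same site along the intestine as this sham tissue was not tested. No member was called by edgeR, against 5 of 14495 IDs (0.0345%), and none by DESeq2. Per1 had the lowest adjusted p (0.235) and was the 1 member with an unadjusted p under 0.05, by edgeR, against 16.4% of all IDs. It was at 21.2, 37.3, 29.4 and 15.3 CPM in Glucotonic_OLE numbers 13, 16, 18 and 19, and at 39.6, 55.5 and 33.1 CPM in Sham_OLE numbers 4, 22 and 23. Number 16 lay among the sham values, and the log2 change was -0.73 (SE 0.27). None of the 8 members was free of overlap, against 12.7% of all IDs. For Arntl the log2 change was 0.60 (SE 0.51, adjusted p = 0.571, edgeR) and for Per2 -0.52 (SE 0.58, adjusted p = 0.683), so the SEs were about as large as these values.

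The non-glucotonic sections gave nearly the same values. No member and no ID was called against sham (0.00% of 14495, lowest adjusted p 0.28, edgeR), and DESeq2 called none of the members. Per1 was at 23.9, 22.1, 18.5 and 17.8 CPM in Nonglucotonic_OLE numbers 13, 16, 18 and 19, all below the lowest sham value. It was the 1 member without overlap, against 6.28% of all IDs, and the 1 member with an unadjusted p under 0.05, against 6.46% (log2 change -1.05, SE 0.27, adjusted p = 0.682, edgeR). Nr1d1 was higher by 0.87 (SE 0.40, adjusted p = 0.761, edgeR) in these sections and by 0.82 (SE 0.40, adjusted p = 0.333, edgeR) in the glucotonic ones. The 2 kinds of section were compared with the same Sham_OLE samples. All 3 of those came from sequencing lane 7, which they shared only with 1 library of number 13 in each kind of section. A fit with lane 7 as a covariate kept the libraries of number 13 apart and had no term for number. Its lane term set the lane 7 libraries of number 13 against those of other lanes and numbers, so it cannot part lane from number. In that fit the log2 change of Per2 was -1.68 (SE 0.77, adjusted p = 0.538, edgeR) in glucotonic and -1.61 (SE 0.74, adjusted p = 0.993, edgeR) in non-glucotonic sections. That of Per1 was -0.99 and -1.20, and no member was called. Within number 13, Per2 was at 29.5 CPM in lane 4 and 27.9 CPM in lane 7 (glucotonic), and at 36.1 and 39.2 CPM (non-glucotonic). The log2 changes of that fit are therefore not values corrected for lane. For the other numbers lane and surgery cannot be told apart.

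Between glucotonic and non-glucotonic sections no member was called. Of all IDs, 0.00% were called by edgeR. The members had unadjusted p above 0.05 throughout, and none was called by DESeq2. With the number as a block, edgeR called 25 IDs (0.179% of 14004) and none of the members. The largest log2 change was 0.33, for Per1 (SE 0.26), and no member was free of overlap, against 2.79% of all IDs. The median absolute log2 change was 0.0503 over the members and 0.128 over all IDs tested.

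Levels in the OLE sections stood apart by number. Per2 was at 28.1 and 37.0 CPM in the glucotonic and non-glucotonic sections of number 13, at 107 and 86.5 CPM in number 16, at 114 and 132 CPM in number 18 and at 43.8 and 35.0 CPM in number 19. Both sections of a number thus stood together, low in 13 and 19 and high in 16 and 18. Arntl was split the other way, high in 13 and 19 and low in 16 and 18. It was at 26.3 and 19.3 CPM in number 13, 8.74 and 12.4 CPM in number 16, 10.7 and 11.4 CPM in number 18 and 31.8 and 27.2 CPM in number 19. Cry1 followed Per2, from 6.16 to 8.25 CPM in the sections of numbers 13 and 19 and from 12.5 to 16.4 CPM in those of 16 and 18.

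Numbers 13 and 19 did not share all levels. Dbp was at 30.8 and 36.0 CPM in number 13 but at 7.52 and 13.4 CPM in number 19, the lowest of all sections, while numbers 16 and 18 lay between 35.9 and 50.7 CPM. Nr1d2 was likewise lowest in number 19, at 31.3 and 39.1 CPM, against 59.5 to 101 CPM in the other sections. Nr1d1 was highest in number 13, at 52.5 and 62.2 CPM. Clock hardly moved, between 69.0 and 82.6 CPM over all 8 sections.

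The number was tested with the kind of section as a term, a test added after these values were seen. It sets the numbers against the spread between sections of one number, and so restates these levels rather than adding support to them. It called 6 of the 8 members by edgeR: Per2 (adjusted p = 0.000419), Cry1 (0.000833), Nr1d2 (0.000873), Arntl (0.00178), Dbp (0.00195) and Nr1d1 (0.00662). Per1 (0.199) and Clock (0.783) were not called. Of all 14004 IDs tested, 30.1% were called. Between the highest and the lowest number the mean level of both sections differed 4.56-fold for Dbp, 3.79-fold for Per2, 2.82-fold for Arntl, 2.65-fold for Nr1d2, 2.33-fold for Nr1d1, 2.31-fold for Cry1, 1.74-fold for Per1 and 1.09-fold for Clock. On the log2 scale that range was 1.92 for Per2, whose sections differed by at most 0.397 within a number, and its median over all IDs was 0.531.

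Without both sections of number 19, edgeR called 2 members, Per2 (adjusted p = 0.0304) and Cry1 (0.0393), and 0.200% of all IDs. At an unadjusted p under 0.05 stood 6 members, as with all numbers, against 9.62% of all IDs without number 19 and 42.9% with it. The range between numbers 13, 16 and 18 was still 3.79-fold for Per2, 2.33-fold for Nr1d1 and 2.31-fold for Cry1, and 2.16-fold for Arntl, but it was 1.44-fold for Nr1d2 and 1.38-fold for Dbp. Without number 13, Nr1d1 lost its call (adjusted p = 0.0905, edgeR) and the other 5 were called. The glucotonic section of number 19 was the 1 library of lane 6, so its lane and number cannot be told apart. Its non-glucotonic section shared lane 5 with that of number 18, and within this lane Per2 was at 35.0 CPM in number 19 and 132 CPM in number 18, Arntl at 27.2 and 11.4 CPM, Dbp at 13.4 and 38.1 CPM and Nr1d2 at 39.1 and 79.4 CPM. Number 13 had libraries in lanes 4 and 7: Per2 was at 29.5 and 27.9 CPM in its glucotonic libraries of these lanes and at 36.1 and 39.2 CPM in its non-glucotonic ones. Per2 was thus low in number 13 in both lanes.

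The 3 Sham_OLE samples spread in the same way. Per2 was at 52.1, 132 and 130 CPM and Arntl at 18.9, 6.68 and 12.8 CPM in numbers 4, 22 and 23. Per2 minus Arntl on the log2 scale was 1.46, 4.29 and 3.33 in these shams. It was 0.09, 3.6, 3.40 and 0.46 in the glucotonic sections of numbers 13, 16, 18 and 19, and 0.93, 2.80, 3.52 and 0.36 in the non-glucotonic ones. Sham number 4 lay between the low and the high numbers. The biological coefficient of variation in the OLE groups was 0.526 for Per2, 0.485 for Dbp and 0.453 for Arntl, the 3 highest of the members, and 0.147 for Clock, the lowest, against a median of 0.22 over all IDs.

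**Figure D4:**
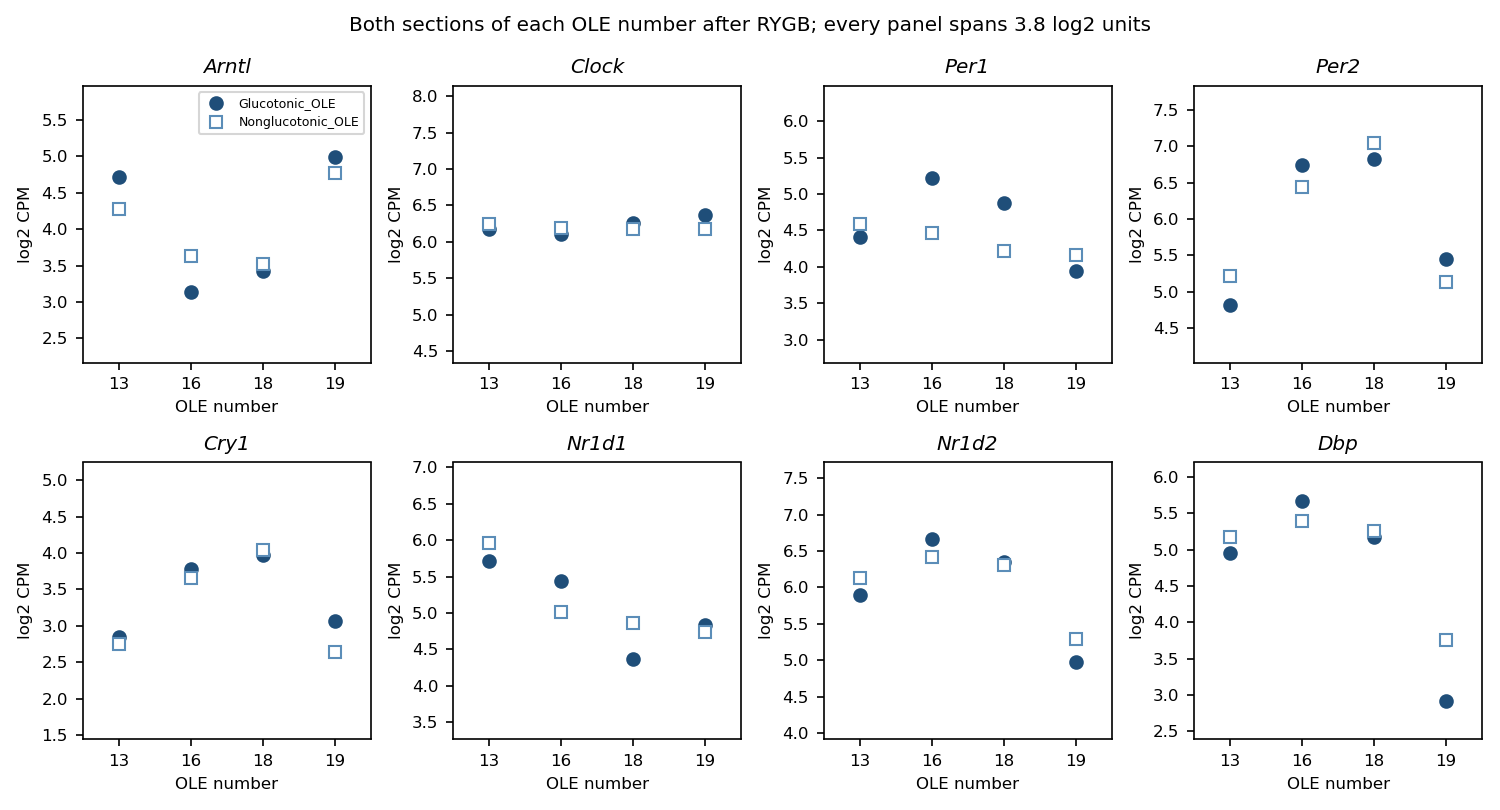
Log2 CPM of each clock gene (vertical axes, each spanning the same width) in the glucotonic (circles) and non-glucotonic (open squares) section of OLE numbers 13, 16, 18 and 19. Per2 and Cry1 were low and Arntl high in both sections of numbers 13 and 19, and Dbp and Nr1d2 were lowest in number 19; for Per1 and Clock the sections of a number lay about as far apart as the numbers did.

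The same test of number in the first cohort, within RYGB and within sham, called no member by edgeR and 0.00619% of all IDs, with 3 members (Arntl, Per1 and Dbp) and 5.03% of all IDs at an unadjusted p under 0.05. DESeq2 called 1.52% of all IDs and 1 member, Per1 (adjusted p = 0.00436), which was higher in both limbs of number 15-29, at 60.1 and 106 CPM, than in those of 1-1 and 2-3, at 28.7 to 44.5 CPM. The edgeR adjusted p of Per1 was 0.63. In this cohort the coefficient of variation was 0.246 for Per2, 0.299 for Dbp and 0.24 for Arntl, against a median of 0.257 over all IDs, and over the 8 members it ran from 0.154 (Nr1d2) to 0.401 (Nr1d1).

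As a description of likeness, the pattern of Arntl over the 12 samples of the first cohort was nearest the reverse of Per2 among the members (Pearson r = -0.925), and it was so over the 11 samples of the OLE cohort (-0.893). These values include the differences between groups. With group means taken out, Arntl in the first cohort was nearest the reverse of Dbp (r = -0.924), with -0.784 for Per2. In the OLE cohort it was still nearest the reverse of Per2 (-0.88). Samples of a group share their surgery and tissue label, and sections of a number may share a source. The points can therefore not be taken as independent. Among the 10942 IDs with a mean of at least 5 CPM, ENSRNOG00000008209 and ENSRNOG00000012844 were most like Arntl in the first cohort (r = 0.95 and 0.936), but not in the OLE cohort (0.233 and 0.151). Those most like Dbp, ENSRNOG00000014966 and ENSRNOG00000033318, fell in the same way from 0.902 and 0.899 to 0.307 and 0.173. Nr1d2 was the member most like Dbp in the OLE cohort (r = 0.899), with 0.594 in the first.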

How the data were processed

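Raw counts per Ensembl gene ID in 25 libraries were deposited by the authors, per the file's whole-number values. Per the labels' protocols, RNA from RNeasy columns went into TruSeq Stranded Total RNA libraries after Ribo-Zero depletion; FastQC, STAR and build rn6 stand in the submitters' processing notes, and the counting tool is not given in the sources used here. Groups came from titles. The 2 libraries of OLE number 13 in each group were summed; the non-glucotonic ones carry different second numbers (33 and 34), of unknown meaning, and may be different pieces of tissue.

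The cohorts were fitted separately with edgeR 4.0.16 in R 4.3.3 (filterByExpr, minimum count 10 and total 15, TMM, robust quasi-likelihood fit, Benjamini-Hochberg adjustment, threshold 0.05). SE is |log2 change| over the square root of F. Log2 CPM used a prior count of 2. DESeq2 1.42.0 was an alternative. The script was tested on simulated data. The members, lists and tests were chosen with earlier results of these data known. All 8 members were tested in every comparison, but not every value is printed. Likeness to Arntl and Dbp was ranked by Pearson r. Lists of other clock genes and cell type markers could not be applied, since 0 IDs are named in the reference table; the tissue labels were therefore not checked against markers. The labels do not say that samples are separate animals. The p-values set a difference against the spread between samples, which may be technical.

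Sections of one OLE number deviated together (r = 0.467, 0.43, 0.341 and 0.811 for 13, 16, 18 and 19) and were taken as paired, although 13, 16 and 18 also reached 0.412, 0.221 and 0.444 against other numbers. The unblocked OLE fit treats them as independent samples. The main first-cohort fit likewise treats both sections of a number as independent samples. The study design also names a cell line comparison, which is not analysed here, since no cell line is among the libraries used.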

Additional observations from a re-analysis of the deposited data

Results flagged for a closer look

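Of 16 sets of values examined in the OLE groups of 4 samples, 1 held a sample far from the others. Nr1d1 in Nonglucotonic_OLE number 13 was at 62.2 CPM, and the nearest of the other 3 numbers was at 32.2 CPM. Its 2 libraries gave 75.8 CPM in lane 4 and 53.3 CPM in lane 7, and the glucotonic section of number 13 had 52.5 CPM. Chance flags about 1 in 20 such sets.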

How the results depend on the processing

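The 3 members called in RYGB_AL against Sham_JEJU became 5 with DESeq2 and ran from 1 to 4 when each library was left out. The count for RYGB_CL against Sham_IL went from 0 to 1 with DESeq2. For Sham_IL against Sham_JEJU, the 1 member called became 0 when only the groups compared were fitted and 0 with the replicate block (Cry1 log2 change -0.84, adjusted p = 0.0671, edgeR), and ran from 0 to 1 when each library was left out; the cause was not tested. For RYGB_CL against RYGB_AL, the count of 0 became 1 with DESeq2 and ran from 0 to 1 without each library, and was 0 with the replicate block. The difference between sites and all OLE comparisons with sham or between sections gave 0 members under every alternative run, the replicate block among them where it could be fitted. The number test in the OLE sections fell from 6 to 2 without number 19, and the first-cohort one rose from 0 to 1 with DESeq2, both run after the data were seen. First-cohort numbers shared r of -0.0481, 0.275 and 0.166 between limbs and of 0.0295, 0.0636 and 0.0869 between sham segments, and were not taken as paired. Of 1160 recomputed log2 changes, 51 had the other sign, none of a called change and all of changes of at most 0.31 in size. Over all IDs, DESeq2 against edgeR called 2029 against 1237 in RYGB_AL against Sham_JEJU, 2639 against 1489 between sham segments, 2771 against 1504 between limbs, 568 against 98 for the difference between sites and 523 against 5 in Glucotonic_OLE against Sham_OLE. The SE of a member's log2 change was 0.14 to 0.47 against sham in the first cohort and 0.12 to 0.58 in the OLE cohort, which limits what could be called.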
